A study of Homo sapiens with 6 samples.

Results

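The genes of the proteasome, its assembly factors and its regulators were followed in A375, an established human melanoma cell line, with and without fluvastatin. Members were all genes of the deposited table whose symbol is PSMA, PSMB, PSMC, PSMD, PSME, PSMF or PSMG followed by a number, which gave 48 of 29790 genes. The rule used names alone and no measured value. The series holds 3 libraries of untreated cells and 3 libraries of cells exposed to 3 µM fluvastatin for 24 h, numbered 0, 1 and 2 in each group. Fluvastatin is a statin, an inhibitor of the enzyme that feeds the mevalonate pathway, from which cells make cholesterol and isoprenoid lipids. Both groups were the same parental line with no added allele, and the controls were grown alongside, with no vehicle named. The treated cells are called triplicates, but nothing says that replicates came from separate cultures, so every p-value rests on a spread among libraries that may be technical. Levels are FPKM (fragments of a gene divided by its length and by the mapped fragments of its library), which allow genes of different length to be compared.

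The proteasome is the protease of cytosol and nucleus that unfolds and cuts proteins tagged with ubiquitin. Its 20S core is a barrel of alpha rings, which gate the entrance, around beta rings, which carry the cutting sites. A 19S cap on the core has a base with ATPases that pull the substrate in and a lid that takes the ubiquitin off. Immune beta subunits induced by interferon can replace the constitutive catalytic ones and change the peptides made for antigen presentation. The transcription factor NFE2L1 is known to raise proteasome genes together when proteasome activity is short, through antioxidant response elements.

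Relative sequencing depth, read from the steps between the lowest values, was 0.964 to 1.18 in controls and 1.27 to 1.51 in fluvastatin libraries, with control 0 as reference. All 3 treated libraries were thus deeper than every control, so depth and treatment cannot be told apart. Melanocyte pigment genes were at or near 0 in both groups (PMEL below 1 FPKM, DCT and TYRP1 lower still), while the melanoma markers SOX10, MITF and MCAM were present. The markers S100B (mean 0.119 FPKM in controls, 0.363 FPKM in treated libraries) and S100A1 (0.460 and 0.309 FPKM) were too low to test. SOX10 rose from 23.3 to 72.0 FPKM (limma adjusted p = 0.000466), whereas MITF (7.18 against 6.68 FPKM) and MCAM (106 against 95.3 FPKM) did not pass. Of 10 melanoma markers 8 were in the table, with summed levels of 125 to 149 FPKM in controls and 167 to 184 FPKM in treated libraries. Of 10 markers of other cell types 7 were in the table, and their summed level was 1.53 to 2.21 FPKM in controls and 6.76 to 8.43 FPKM after fluvastatin. Most of it came from KRT14 of basal epithelium, which rose from 0.691 to 4.99 FPKM, and LYZ of myeloid cells, which rose from 0.893 to 2.29 FPKM (limma adjusted p = 0.000445 and 0.00942). The other 5 were too low to test: mean levels were 0.0171 FPKM in controls and 0.0578 FPKM in treated libraries for PECAM1, 0.151 and 0.270 FPKM for KRT5, 0.114 and 0.0294 FPKM for EPCAM, and CDH1 and CDH5 were listed at 0 in all 3 treated libraries. With relative depth as a covariate SOX10, KRT14 and LYZ lost their calls (limma adjusted p = 0.0827, 0.0822 and 0.287). The part of the markers in the results below was not tested. In bulk RNA fewer cells of a type and less RNA per cell cannot be told apart.

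After fluvastatin 8 of the 46 tested proteasome genes fell and 0 rose, by limma's moderated test on log2(FPKM + 1) with Benjamini-Hochberg adjustment over 14344 tested genes and a threshold of 0.05. The 8 were PSMA3 and PSMA6 of the alpha ring, the immune subunit PSMB8, the lid subunits PSMD7, PSMD12 and PSMD14, the nuclear activator PSME3 and the assembly chaperone PSMG1. Over all tested genes 27.7% changed, 13.6% fell and 14.1% rose, so the 17.4% of proteasome genes that fell lies close to the background, and the 0% that rose lies below it. At an unadjusted p below 0.05, 17 proteasome genes (37.0%) were lower and 0 higher, against 20.5% lower and 19.8% higher over all tested genes. The falls were small: log2 fold changes ran from -0.55 to 0.19, with a median of -0.16 against -0.01 over all tested genes. The log2 fold change was negative in 39 of the 46 (84.8%, against 51.1% of all tested genes) and positive in 7. Negative signs numbered 36 with trimmed mean of M-values scaling and 34 after quantile normalization. The 3 treated libraries all lay below the 3 controls in 22 proteasome genes, 47.8% against 22.9% of all tested genes, and all above in 2, 4.35% against 21.9%. Among the 4660 tested genes whose level lay within the range of the proteasome genes, 18.97% fell and 31.2% lay wholly below their controls. In the same 4660 genes 27.3% were lower at an unadjusted p below 0.05, and 56.1% had a negative log2 fold change.

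**Figure D1:**
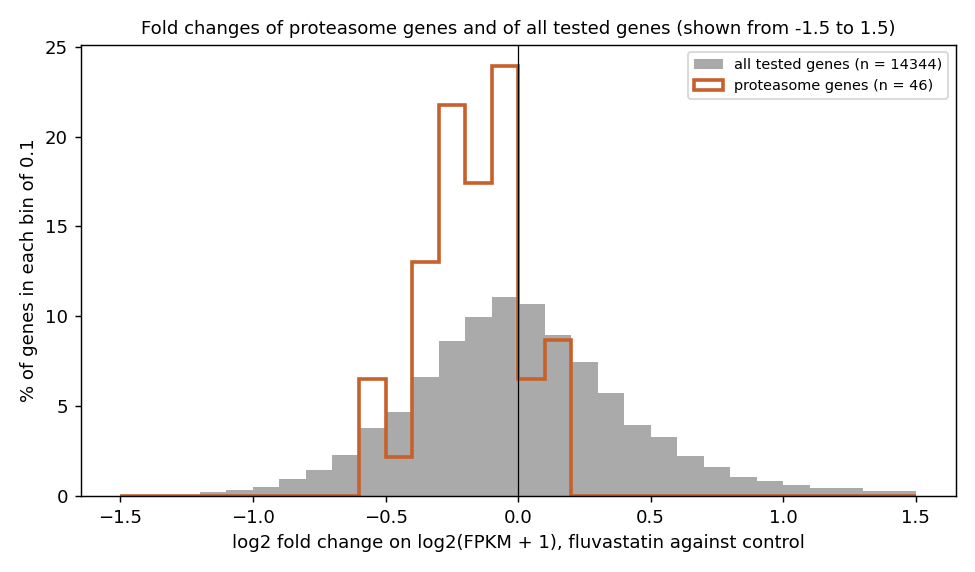
Share of genes (y axis, %) in each bin of log2 fold change of width 0.1 (x axis, fluvastatin against control on log2(FPKM + 1)), for all 14344 tested genes (grey) and the 46 tested proteasome genes (orange outline). The proteasome genes lie between -0.55 and 0.19, with 39 of them left of 0.

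The number of calls fell when single libraries were left out, both for proteasome genes and for all genes. Leaving out control 0, 1 or 2 left 3, 3 and 6 proteasome genes fallen, and leaving out fluvastatin 0, 1 or 2 left 2, 4 and 5. Without control 0, 1 or 2 the share of proteasome genes that fell was 6.52%, 6.52% and 13.0%. Of all tested genes 9.22%, 8.68% and 11.4% were lower in the same fits. Without fluvastatin 0, 1 or 2 the proteasome shares were 4.35%, 8.70% and 10.9%, against 7.43%, 8.89% and 8.95% of all tested genes. PSMA3 and PSMG1 kept their call in each of these 6 fits. With relative depth as a covariate 0 proteasome genes and 61 of all genes were called by limma, with 3 proteasome genes at an unadjusted p below 0.05, while the median proteasome log2 fold change was -0.19 and 38 of 46 stayed negative.

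**Figure D2:**
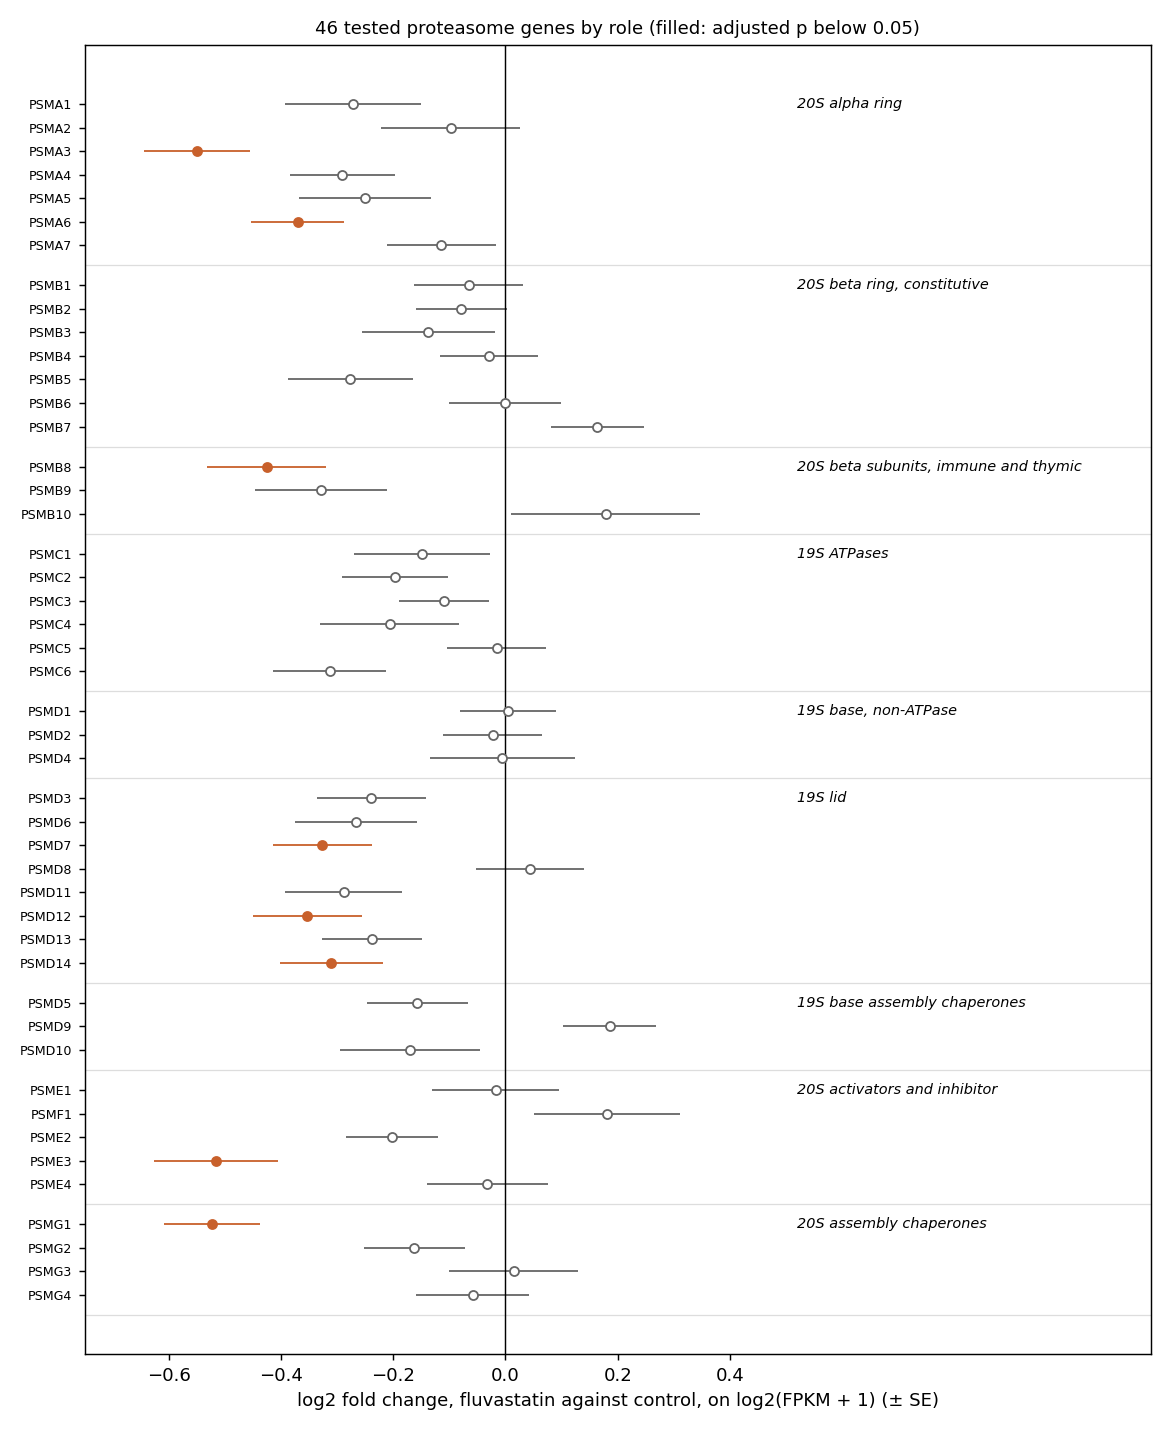
Log2 fold change with its standard error (x axis, fluvastatin against control on log2(FPKM + 1)) of each of the 46 tested proteasome genes (y axis), grouped by role. Filled orange points mark the 8 genes that passed the adjusted threshold, all of them left of 0; open points did not pass.

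Of the 48 members 46 passed the filter, which asked for 1 FPKM or more in 3 or more libraries. Their control means ran from 27.1 FPKM for PSMB9 to 370.3 FPKM for PSMB3. PSMA8, the alpha subunit of germ cells, was listed at 0 in 5 libraries and at 0.043 FPKM in fluvastatin 2. PSMB11, the catalytic subunit of the thymic cortex, was listed at 0 in 5 libraries and at 0.0244 FPKM in fluvastatin 1. Neither tissue-restricted subunit was tested. Across the 46 genes the log2 fold change bore no rank relation to the mean level (Spearman's rho 0.0034, a description over genes that share their libraries).

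Upstream sequences were searched for motifs of known proteasome regulators. RefSeq promoter windows on GRCh38.p14 were given for 42 of the 48 genes, as 51 windows, and the 250 bases before each start were searched on both strands. The motifs were TGACNNNGC (the core of the antioxidant response element, bound by NFE2L1), CCAAT (bound by NF-Y) and TTCNNNGAA (an element of interferon-responsive genes). TGACNNNGC was found in 13 windows (25.5%, against 10.9% of all 35116 windows of this length), CCAAT in 19 (37.3% against 32.0%) and TTCNNNGAA in 7 (13.7% against 6.57%). Of the 10 windows of genes that fell, 2 held TGACNNNGC, 5 CCAAT and 2 TTCNNNGAA. The median GC content was 61.6% in proteasome windows and 58.0% in all. A match describes letters and is not a binding site. The RefSeq start can lie inside a longer annotated transcript: 18 of the 51 windows lay wholly in exons of GENCODE 29, and only 4 held no exon base.
Printed below are PSMA3, PSMA6 and PSMD12, which fell, and PSMD9, which did not pass and lay above its controls. Each runs 5′ to 3′ on the gene's strand up to the first base of an exon annotated by GENCODE 29, and capitals mark matches to the motifs on either strand. PSMA3 is chr14:58244593-58244830 on the plus strand, PSMA6 chr14:35292067-35292316 on the plus strand, PSMD12 chr17:67366628-67366827 on the minus strand and PSMD9 chr12:121888540-121888730 on the plus strand.
PSMA3: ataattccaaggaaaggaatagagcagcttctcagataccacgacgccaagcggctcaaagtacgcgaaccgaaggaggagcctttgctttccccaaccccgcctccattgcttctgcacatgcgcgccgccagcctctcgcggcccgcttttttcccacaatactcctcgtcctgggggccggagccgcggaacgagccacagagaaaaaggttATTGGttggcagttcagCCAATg
PSMA6: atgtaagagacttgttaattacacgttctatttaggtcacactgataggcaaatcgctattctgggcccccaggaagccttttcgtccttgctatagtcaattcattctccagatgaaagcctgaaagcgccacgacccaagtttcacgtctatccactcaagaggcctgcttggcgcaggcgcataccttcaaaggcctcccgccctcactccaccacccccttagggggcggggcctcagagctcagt
PSMD12: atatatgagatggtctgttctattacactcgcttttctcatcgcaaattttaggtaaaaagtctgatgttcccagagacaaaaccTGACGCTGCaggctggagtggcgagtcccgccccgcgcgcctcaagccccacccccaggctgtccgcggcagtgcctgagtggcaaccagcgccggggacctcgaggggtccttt
PSMD9: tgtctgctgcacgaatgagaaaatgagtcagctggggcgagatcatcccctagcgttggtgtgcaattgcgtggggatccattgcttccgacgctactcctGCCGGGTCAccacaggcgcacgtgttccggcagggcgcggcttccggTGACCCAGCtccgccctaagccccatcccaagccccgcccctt
PSMA3 carried CCAAT once on each strand close to the start, PSMA6 none of the searched motifs, PSMD12 TGACNNNGC once and PSMD9 TGACNNNGC once on each strand.

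The summed level of the alpha ring lay lower in every treated library, and 2 of its subunits fell. The sum was 1529, 1469 and 1563 FPKM in controls 0, 1 and 2 and 1178, 1313 and 1248 FPKM in fluvastatin 0, 1 and 2, a change of -18.0%. Of 7 tested alpha genes 2 fell (28.6%, against 13.6% of all tested genes) and 0 rose. Wholly below their controls lay 4 (57.1% against 22.9%). All 7 had a negative log2 fold change, against 51.1% of all tested genes, and the median was -0.27. Among tested genes within the level range of the proteasome genes, 18.97% fell and 31.2% lay wholly below. PSMA3 (ENSG00000100567.12, chr14:58244831-58272012, plus strand) codes for a subunit of the outer gating ring. Its level was 260.3, 271 and 284 FPKM in the controls and 179.6, 202 and 175 FPKM after fluvastatin, both in the order of replicates 0, 1 and 2. All 3 treated libraries lay below all 3 controls. The mean was 272 ± 11.6 (SD, n = 3) against 186 ± 14.6 FPKM, 1.46-fold lower (log2 fold change -0.55 ± 0.09 SE, limma adjusted p = 0.00787). That was the largest fall among the proteasome genes.

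PSMA6 (ENSG00000100902.10, chr14:35278633-35317493, plus strand), another alpha subunit, read 252, 248 and 271 FPKM in controls and 195, 195 and 205 FPKM in treated libraries. Again the groups did not overlap, with 257 ± 12.4 against 198 ± 6.15 FPKM (n = 3 each), 1.29-fold lower (log2 -0.37 ± 0.08, limma adjusted p = 0.0197). Without fluvastatin 0 or 1 the call was lost (adjusted p = 0.0689 and 0.0620). One pseudogene copy, PSMA6P1, reached 1.68 to 3.20 FPKM and could share reads with PSMA6. PSMA4 (231 against 188 FPKM, adjusted p = 0.0616) and PSMA1 (143 against 118 FPKM, 0.145) lay wholly below their controls and did not pass. PSMA5 (196 against 165 FPKM), PSMA7 (314 against 291 FPKM) and PSMA2 (log2 -0.10 ± 0.12) overlapped.

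The constitutive beta ring moved much less. Its summed level was 1424, 1343 and 1306 FPKM in controls and 1233, 1414 and 1276 FPKM after fluvastatin, a change of -3.69% with overlapping groups. Of its 7 genes 0 fell and 0 rose, against 13.6% and 14.1% of all tested genes, shares that predict few calls among 7 genes. The log2 fold change was negative in 6 (85.7% against 51.1%), with a median of -0.07. Wholly below its controls lay 1 (14.3% against 22.9%) and wholly above 1 (14.3% against 21.9%). The structural subunits PSMB1, PSMB2, PSMB3 and PSMB4 all overlapped between groups. PSMB3 was the most abundant proteasome gene at 370.3 ± 19.2 against 338 ± 45.9 FPKM (n = 3 each, limma adjusted p = 0.433), and PSMB4 followed in the controls at 317 against 311 FPKM.

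None of the 3 constitutive catalytic subunits passed. PSMB5, the chymotrypsin-like subunit that bortezomib blocks, read 133, 122 and 105 FPKM in controls and 93.9, 103 and 98.6 FPKM after fluvastatin. The treated libraries all lay below, by 1.22-fold, but the spread left a limma adjusted p of 0.113 (log2 -0.28 ± 0.11). Without control 2, the lowest control, PSMB5 passed (adjusted p = 0.0475). PSMB6, the caspase-like subunit, read 124, 109 and 105 FPKM in controls and 113, 119.6 and 106 FPKM in treated cells. Its groups overlapped, and the means were both 113 FPKM (log2 -0.00 ± 0.10). PSMB7, the trypsin-like subunit, read 181, 183 and 183 FPKM in controls and 197, 218 and 199 FPKM after fluvastatin. It was 1 of the 2 proteasome genes whose treated libraries all lay above the controls, by 0.16 ± 0.08 on the log2 scale (adjusted p = 0.191).

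Immune subunits were present in untreated A375 cells at lower levels than their constitutive partners. Of the 3 tested 1 fell (33.3%, against 13.6% of all tested genes). PSMB8 (ENSG00000204264.8, chr6:32840717-32844703, minus strand), the interferon-induced partner of PSMB5, read 50.5, 54.8 and 48.2 FPKM in controls and 34.9, 42.2 and 36.6 FPKM after fluvastatin. The groups did not overlap, and the mean was 51.2 ± 3.37 against 37.9 ± 3.85 FPKM (n = 3 each), 1.35-fold lower (log2 -0.43 ± 0.11, limma adjusted p = 0.0275). The call was lost without control 0 or 1 (adjusted p = 0.0648 and 0.0859) and without fluvastatin 0 or 2 (0.0905 and 0.0838).

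PSMB9, the partner of PSMB6, read 27.2, 25.1 and 29.1 FPKM in controls and 18.6, 23.8 and 21.9 FPKM after fluvastatin. All treated values lay below the controls, by 1.26-fold, and the adjusted p was 0.0813 (log2 -0.33 ± 0.12). PSMB9 and PSMB8 lie side by side on chromosome 6 with exons that overlap on opposite strands, so without a stated strand setting their reads cannot be told apart there. PSMB10, the partner of PSMB7, read 35.7, 24.8 and 23.7 FPKM in controls and 29.8, 34.9 and 29.7 FPKM in treated libraries. Control 0 stood above every treated library and the other 2 controls below, and PSMB10 did not pass (log2 0.18 ± 0.17, adjusted p = 0.475).

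Ratios within a library ask whether the immune member of each pair moved apart from its constitutive partner, free of library scaling. PSMB8 made up 30.0% ± 2.18 of the PSMB8 and PSMB5 level in controls and 27.7% ± 1.16 after fluvastatin. The log2 ratio differed by -0.16 (exact two-sided permutation p = 0.2, adjusted 0.3 over 3 ratios). PSMB9 made up 19.4% ± 1.91 of its pair with PSMB6 in controls and 16% ± 1.61 in treated cells. Those groups did not overlap, with a log2 difference of -0.34 (exact permutation p = 0.1, adjusted 0.3). PSMB10 made up 13.3% of its pair with PSMB7 in both groups (log2 difference 0.02, exact permutation p = 1). With 3 libraries against 3 the test cannot go below 0.1, so no ratio could pass. The sign for PSMB10 turned without control 1 or 2 or fluvastatin 1 (-0.06, -0.09 and -0.01).

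**Figure D3:**
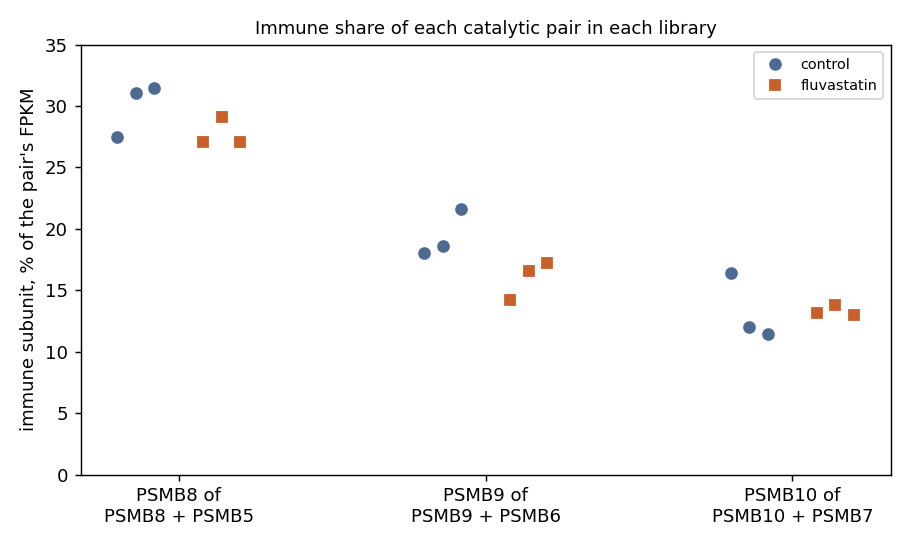
Level of the immune subunit as a percentage of its pair's summed FPKM (y axis) in each of the 3 control (blue circles) and 3 fluvastatin libraries (orange squares), for the 3 catalytic pairs (x axis). Only the PSMB9 pair separates the groups, and control 0 stands above the other controls in the PSMB10 pair.

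In the 19S cap the lid was lower while the non-ATPase subunits of the base stayed near their control level. The 8 lid genes summed to 879, 885 and 892 FPKM in controls and 712, 742 and 799 FPKM after fluvastatin, a change of -15.2%. Of the 8, 3 fell (37.5%, against 13.6% of all tested genes) and 0 rose. Wholly below their controls lay 7 (87.5% against 22.9%), and the median log2 fold change was -0.28. Among tested genes within the level range of the proteasome genes, 18.97% fell and 31.2% lay wholly below. PSMD7 (ENSG00000103035.10, chr16:74296775-74306288, plus strand), the partner that holds the lid's deubiquitinase in place, read 104, 99.8 and 107 FPKM in controls and 77.2, 88.0 and 82.6 FPKM after fluvastatin. No treated library reached a control, and the mean was 104 ± 3.67 against 82.6 ± 5.38 FPKM (n = 3 each), 1.26-fold lower (log2 -0.33 ± 0.09, limma adjusted p = 0.0360). Leaving out any 1 of the 6 libraries lost this call (adjusted p 0.0530 without fluvastatin 1 to 0.117 without fluvastatin 0).

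PSMD14 (ENSG00000115233.11, chr2:161308038-161411717, plus strand) is the metalloprotease that removes ubiquitin chains from substrates. It read 94.3, 84.0 and 93.2 FPKM in controls and 68.9, 72.4 and 77.1 FPKM after fluvastatin. The groups were apart, at 90.5 ± 5.63 against 72.8 ± 4.11 FPKM (n = 3 each), 1.24-fold lower (log2 -0.31 ± 0.09, limma adjusted p = 0.0479). It stood just inside the threshold and lost its call when any 1 library was left out (adjusted p 0.0639 without control 1 to 0.145 without fluvastatin 0).

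PSMD12 (ENSG00000197170.9, chr17:67337916-67366627, minus strand), a scaffold subunit of the lid whose upstream stretch is printed above, read 87.8, 87.0 and 90.8 FPKM in controls. After fluvastatin it read 68.0, 63.6 and 76.3 FPKM, all below the controls. The mean was 88.6 ± 2.02 against 69.3 ± 6.47 FPKM (n = 3 each), 1.28-fold lower (log2 -0.35 ± 0.10, limma adjusted p = 0.0367). It passed without fluvastatin 2 and lost the call without any of the other 5 libraries (adjusted p 0.0819 without control 2 to 0.107 without fluvastatin 0). PSMD11 (148 against 121 FPKM, adjusted p = 0.0844), PSMD13 (93.5 against 79.1 FPKM, 0.0924), PSMD3 (114 against 97.0 FPKM, 0.116) and PSMD6 (124 against 103 FPKM, 0.116) also lay wholly below their controls and did not pass. PSMD8 was the lid gene apart from these, at 122 against 126 FPKM with overlapping groups.

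**Figure D4:**
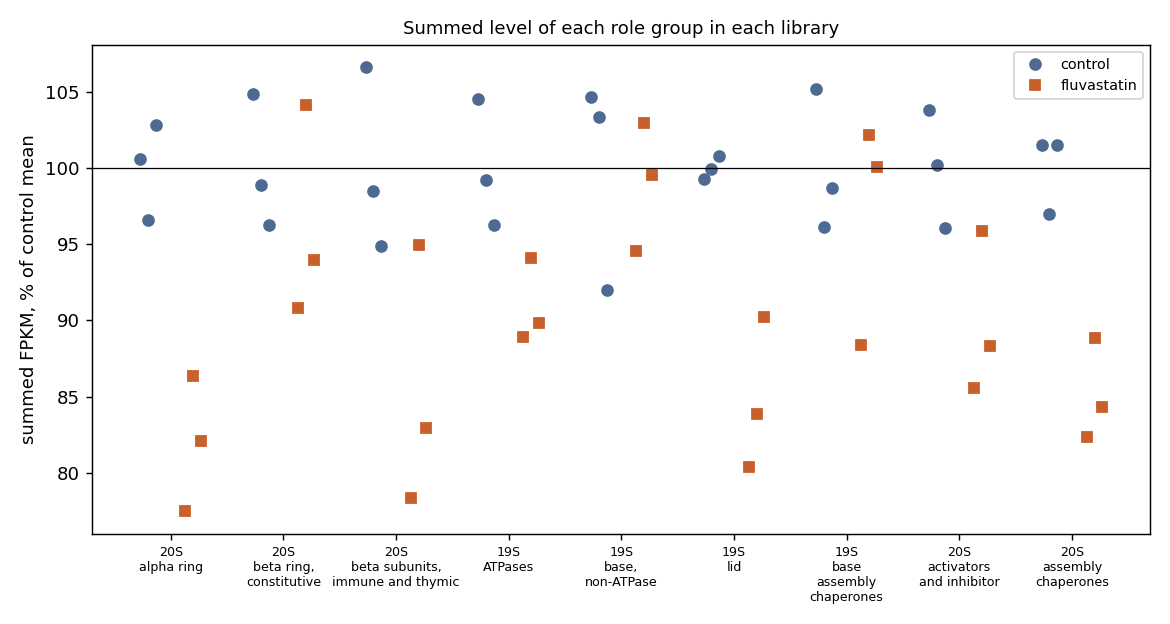
Summed FPKM of each role group in each library, as a percentage of the group's control mean (y axis, not starting at 0), for 3 control (blue circles) and 3 fluvastatin libraries (orange squares). The alpha ring, the lid and the 20S assembly chaperones lie furthest below 100 without overlap, while the constitutive beta ring and the non-ATPase base overlap their controls.

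Of the 6 ATPases of the base, which form the ring that unfolds substrates, 0 fell and 0 rose. Over all tested genes 13.6% fell and 14.1% rose, shares that predict few calls among 6 genes. Wholly below their controls lay 3 (50% against 22.9%). All 6 had a negative log2 fold change, against 51.1% of all tested genes, with a median of -0.17. Their sum went from 551 ± 23.1 to 501 ± 15.2 FPKM (-9.05%). PSMC6 came nearest to the threshold, at 51.6, 48.3 and 54.5 FPKM in controls and 37.3, 44.1 and 42.4 FPKM after fluvastatin (limma adjusted p = 0.0603). PSMC2 and PSMC3 also lay below their controls, while PSMC1, PSMC4 and PSMC5 overlapped. PSMC5 shares exon sequence on the opposite strand with FTSJ3, which read 75.1 to 97.0 FPKM in controls and 54.6 to 59.0 FPKM in treated libraries.

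The 3 other base subunits were close to level. PSMD1 and PSMD2, the large scaffolds to which substrate shuttles dock, read 88.9 against 89.2 and 283 against 278 FPKM. PSMD4, a ubiquitin receptor, read 215 against 213 FPKM. Their log2 fold changes lay between -0.02 and 0.00, with standard errors of 0.08 to 0.13. The chaperones that build the base, PSMD5, PSMD9 and PSMD10, gave 0 calls. Over all tested genes 13.6% fell and 14.1% rose, shares that predict few calls among 3 genes. Their summed level changed by -3.13%, with overlapping groups. PSMD5 lay wholly below its controls and did not pass (log2 -0.16 ± 0.09, limma adjusted p = 0.241). PSMD10 was also lower on average, with overlapping groups (log2 -0.17 ± 0.12, limma adjusted p = 0.356). PSMD9 read 31.3, 30.2 and 29.8 FPKM in controls and 32.7, 35.5 and 36.0 FPKM after fluvastatin. With PSMB7 it was the other gene lying wholly above its controls (log2 0.19 ± 0.08, limma adjusted p = 0.147).

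Among activators and the inhibitor of the core, 1 of 5 genes fell (20%, against 13.6% of all tested genes). PSME3 (ENSG00000131467.10, chr17:42824385-42843758, plus strand) codes for the nuclear cap that opens the core to substrates without ubiquitin. Its level was 179, 176 and 155 FPKM in controls and 106, 127 and 124 FPKM after fluvastatin. The highest treated library stayed below the lowest control. The mean was 169.9 ± 13.1 against 119 ± 11.3 FPKM (n = 3 each), 1.43-fold lower (log2 -0.52 ± 0.11, limma adjusted p = 0.0166). The call was narrowly lost without control 0 or 1 (adjusted p = 0.0510 and 0.0559) and without fluvastatin 0 (0.0533). PSME3 shares exon sequence with BECN1 on the opposite strand, which read 44.7 to 45.5 FPKM in controls and 47.2 to 50.9 FPKM in treated libraries. The interferon-induced activator genes PSME1 (102 against 101 FPKM) and PSME2 (87.2 against 75.6 FPKM, adjusted p = 0.115) did not pass. PSME1 overlapped between groups, while PSME2 lay wholly below its controls. PSME4, an activator linked to chromatin, read 46.7 against 45.6 FPKM. PSMF1, an inhibitor of the core in vitro, read 104 against 118 FPKM (log2 0.18 ± 0.13).

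PSMG1 (ENSG00000183527.11, chr21:39174769-39183851, minus strand) gave the smallest adjusted p of all proteasome genes. It pairs with PSMG2 in the chaperone on which the alpha ring is assembled. PSMG1 read 79.4, 70.2 and 76.6 FPKM in controls and 51.2, 52.2 and 52.9 FPKM after fluvastatin. The treated libraries lay far below the controls and close together. The mean was 75.4 ± 4.73 against 52.1 ± 0.849 FPKM (n = 3 each), 1.45-fold lower (log2 -0.52 ± 0.09, limma adjusted p = 0.00695). PSMG2 lay below its controls at 79.1 against 70.5 FPKM and did not pass (adjusted p = 0.227). The second chaperone pair, PSMG3 (36.5 against 37.0 FPKM) and PSMG4 (29.1 against 28.0 FPKM), overlapped.

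**Figure D5:**
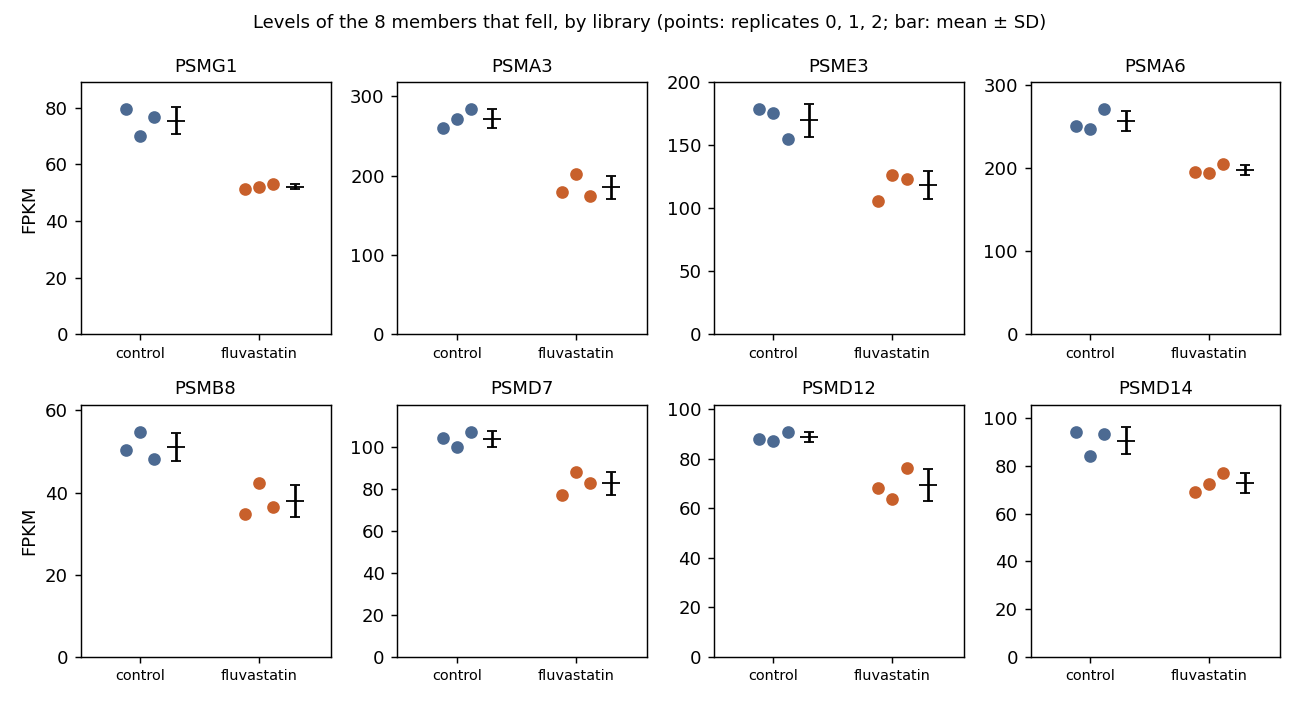
FPKM (y axis, from 0) of the 8 proteasome genes that fell, in control (blue) and fluvastatin libraries (orange), with the mean ± SD beside the 3 points of each group (n = 3). In all 8 panels the highest treated library lies below the lowest control.

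Summed over all 48 genes, proteasome transcripts made 5992, 5774 and 5744 FPKM in controls and 4956, 5478 and 5225 FPKM after fluvastatin. Every treated library lay below every control, with a change of -10.6%. As a share of the library's FPKM sum, proteasome genes held 0.804% to 0.842% in controls and 0.719% to 0.751% in treated libraries.

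Of 14 proteasome partners with other names, 2 rose (14.3%, against 14.1% of all tested genes) and 1 fell (7.14% against 13.6%), shares near or below the background. ZFAND2A, a stress-induced factor that binds the 19S cap, went from 19.1 to 32.7 FPKM (limma adjusted p = 0.0176). AKIRIN2, which brings proteasomes into the nucleus, went from 18.8 to 23.6 FPKM (0.0269). UCHL5, a deubiquitinase of the cap, went from 84.0 to 59.9 FPKM (0.0202). Its receptor on the cap, ADRM1, read 115.6 against 109 FPKM and the core assembly factor POMP 98.3 against 98.1 FPKM, and neither passed. ZFAND2A lost its call without fluvastatin 0, 1 or 2 (adjusted p = 0.0574, 0.0513 and 0.0556), and UCHL5 without control 0 or 2 (0.0594 and 0.0522) or fluvastatin 0 or 1 (0.0633 and 0.0629). AKIRIN2 lost it without any 1 of the 6 libraries (0.0565 without control 2 to 0.0877 without fluvastatin 0). With relative depth as a covariate ZFAND2A, AKIRIN2 and UCHL5 all lost their calls (limma adjusted p = 0.104, 0.388 and 0.628).

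Of 11 genes of the NFE2L1 route, 4 rose (36.4%, against 14.1% of all tested genes) and 0 fell (against 13.6%), and the median log2 fold change was 0.28 against -0.01. SYVN1 and SEL1L, which form the ubiquitin ligase of the endoplasmic reticulum that keeps NFE2L1 low, went from 18.7 to 38.5 FPKM (limma adjusted p = 0.00210) and from 16.8 to 25.0 FPKM (0.00672). The small MAF proteins that NFE2L1 pairs with on DNA include MAFF, which went from 15.2 to 30.0 FPKM (0.00278), and MAFK, from 22.9 to 38.9 FPKM (0.00733). NFE2L1 itself read 104, 94.0 and 91.4 FPKM in controls and 107, 132 and 105 FPKM after fluvastatin, all treated values above the controls without passing (adjusted p = 0.183). With NFE2L1, 7 of the 11 did not pass. DDI2, NGLY1, NPLOC4 and VCP had log2 fold changes of -0.003, 0.02, -0.05 and -0.22, and MAFG and UFD1L of 0.28 and 0.31. The 4 calls were lost with relative depth as a covariate (limma adjusted p = 0.162 for SYVN1 to 0.353 for MAFK).

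Shared sequence limits some of these values. In 21 of the 48 proteasome genes an exon overlaps an exon of another listed gene, in 12 of them one that reached 5 FPKM in some library. The table also lists 19 like-named pseudogenes of 11 members, of which only PSMA6P1 reached 1 FPKM.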

How the data were processed

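The table deposited by the authors holds 1 value per gene and library, taken as FPKM because the values are not whole and no unit is named in the header. STAR, Cufflinks and Cuffdiff with the hg38 build are named by the submitters' processing notes; versions, the strand setting and absolute depth are not given in the sources used here. The test was limma 3.58.1 on log2(FPKM + 1) (R 4.3.3; lmFit, eBayes, trend and robust off, two-sided) over the 14344 genes that reached 1 FPKM in 3 or more libraries, and the fit was tested on simulated data. Folds are ratios of mean FPKM. Ratios were tested by exact permutation in SciPy 1.17.1. Positions come from GENCODE 29, where 29542 identifiers matched without their version, and upstream sequences from RefSeq (GRCh38.p14).

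The proteasome genes and all lists were chosen with earlier results of these data known. Library values are given for members that passed, for PSMB5 to PSMB10 and where a limit asks for them. Other lists give up to 4 members that passed plus NFE2L1, POMP, ADRM1 and UCHL5. The remaining genes of the NFE2L1 route were added after their values were seen. The results of 2 further lists are not reported here. PSMC6, PSMD9 and the markers shown by name were singled out after their values were seen. Relative depth came from the most frequent step ratio (window 0.02 on the log2 scale) at genes at 0 in at least 2 libraries. The 15 alternatives to the fit are given in the closing section.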

Additional observations from a re-analysis of the deposited data

How the results depend on the processing

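The count of 3971 changed genes became 61 with relative depth as a covariate and ranged from 2340 to 3416 when 1 library was left out. The count of 8 proteasome genes that fell became 0 with the depth covariate and 5 with a replicate block. It ranged from 2 to 6 without 1 library. All these fits have fewer samples or fewer residual degrees of freedom. Every treated library was also deeper than every control, so the fit with the depth covariate cannot separate depth from treatment. The cause of the lower counts was not tested. In the other settings, pseudocount 0.1, no filter, a mean FPKM of 5 or more, trimmed mean of M-values, quantile normalization, trend and robust on, and protein-coding genes alone, 6 to 12 proteasome genes fell. In all 15 alternatives 0 rose. PSMA4 and PSMC6 passed with the mean of at least 5 FPKM, with trend and robust on and with protein-coding genes alone; PSMD11 and PSMD13 passed with trend and robust on. The block lost PSMD7, PSMD12 and PSMD14 (limma adjusted p = 0.0789, 0.0594 and 0.0853) and, among other named genes, AKIRIN2 (0.0649). PSMD14 was also lost at pseudocount 0.1, with no filter, with the trimmed mean of M-values and with quantile normalization (0.0511 to 0.0600), and PSMD12 with quantile normalization (0.0584). Deviations from the group means correlated at -0.0015, 0.0845 and 0.0842 for same-numbered libraries and at -0.136 to 0.0579 for the others. With 3 libraries in each group these values cannot settle whether replicate numbers pair the libraries. The median proteasome log2 fold change lay between -0.20 and -0.13 throughout. Absolute depth is unknown, so no counting intervals are given.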

Other observations

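Ratios between parts of the proteasome were looked at after the sums had been seen, and 1 of the 3 separated the groups. The summed alpha-ring level divided by that of the constitutive beta ring was 1.07, 1.09 and 1.20 in controls 0, 1 and 2 and 0.955, 0.928 and 0.978 after fluvastatin, with no overlap. The lid divided by the base was 0.739, 0.768 and 0.834 in controls and 0.681, 0.661 and 0.740 after fluvastatin, where control 0 and fluvastatin 2 overlap. The 19S subunits divided by the constitutive 20S core gave 0.703 ± 0.0207 in controls and 0.719 ± 0.0312 after fluvastatin (n = 3 each), which overlap. These are values with no test.

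The members lie on 17 chromosomes, with 8 on chromosome 14 and 7 on chromosome 17.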
